A study of Homo sapiens with 6 samples.

Results

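The HOX cluster genes are the homeobox genes that lie in 4 tight groups, HOXA to HOXD, on separate chromosomes. They were taken here as every transcript cluster, the array's unit of probes for 1 gene, whose symbol in the platform annotation is HOX followed by a letter from A to D and a number. Where a symbol had several transcript clusters, the one with the highest mean signal over the 6 arrays was kept. Genes were named only from the 16098 of 53617 transcript clusters to which the annotation gives a single symbol. This gave 27 HOX genes among 14884 symbols, the named genes below. A gene said to be not named may still lie on a transcript cluster with several symbols. RefSeq lists 39 such genes. All 10 of cluster B (chromosome 17) and all 9 of cluster D (chromosome 2) were covered, with 7 of 9 in cluster C (chromosome 12), where HOXC5 and HOXC6 were not named, and 1 of 11 in cluster A (chromosome 7), which was HOXA2. The values below therefore say nothing of the other HOXA genes.

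RNA came from MDA-MB-231 cells, an established human breast cancer line of the triple-negative kind, kept in DMEM medium with FBS. The 3 SAM arrays hold RNA from cells given 200 µM S-adenosylmethionine (SAM), the methyl donor of most cellular methyltransferases, added to the growth medium every other day. The 3 Control arrays hold RNA from cells that the labels call untreated, while the paper describes vehicle-treated controls in its cell culture experiments. The paper describes 3 independent experiments with this 1 line, measured on Affymetrix Human Gene 2.0 ST arrays, and each value is an RMA signal on the log2 scale, in which a difference of 1 is a doubling.

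HOX genes encode homeodomain transcription factors that give cells their position along the body axis. Within a cluster, genes with low numbers act towards the head and genes with high numbers towards the tail, and genes with the same number in different clusters (paralogs) arose from 1 ancestral gene. Polycomb complexes keep silent HOX genes off: Polycomb repressive complex 2 methylates histone H3 at lysine 27, with SAM as methyl donor, and Polycomb repressive complex 1 ubiquitinates histone H2A. MLL complexes, which methylate lysine 4 of histone H3 and also use SAM, keep active HOX genes on. Adult tissues and cultured cells often keep part of the HOX pattern of their origin, and breast tumors can express HOX genes that the normal gland does not.

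Start regions are shown for 4 genes to give the sequence next to the results below, 250 bases before to 50 bases after the start of the gene. Each CG dinucleotide, the site at which DNA can be methylated in human cells, is in capitals. The genes are HOXD1, which had the lowest log2 fold change with all 6 arrays, HOXD8, whose SAM and Control arrays did not overlap, HOXD4, the brightest of cluster D in Control arrays, and HOXA2, the only HOXA member. The sequences are from RefSeq (GRCh38.p14) and read 5′ to 3′ on the strand of the gene.
HOXD1 (chr2:176188418-176188717, + strand): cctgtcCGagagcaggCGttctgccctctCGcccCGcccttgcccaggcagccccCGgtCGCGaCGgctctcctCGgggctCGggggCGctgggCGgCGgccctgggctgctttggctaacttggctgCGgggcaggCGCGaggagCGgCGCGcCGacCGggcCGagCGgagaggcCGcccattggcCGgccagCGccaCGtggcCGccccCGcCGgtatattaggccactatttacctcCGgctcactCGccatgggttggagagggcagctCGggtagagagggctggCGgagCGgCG
HOXD8 (chr2:176129455-176129754, + strand): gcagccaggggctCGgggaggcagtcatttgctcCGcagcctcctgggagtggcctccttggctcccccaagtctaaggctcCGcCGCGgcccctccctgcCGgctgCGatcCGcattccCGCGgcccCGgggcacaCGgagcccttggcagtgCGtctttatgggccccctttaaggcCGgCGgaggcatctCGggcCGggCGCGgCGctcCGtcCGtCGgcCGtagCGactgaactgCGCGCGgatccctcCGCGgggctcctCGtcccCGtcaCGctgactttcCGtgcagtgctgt
HOXD4 (chr2:176151300-176151599, + strand): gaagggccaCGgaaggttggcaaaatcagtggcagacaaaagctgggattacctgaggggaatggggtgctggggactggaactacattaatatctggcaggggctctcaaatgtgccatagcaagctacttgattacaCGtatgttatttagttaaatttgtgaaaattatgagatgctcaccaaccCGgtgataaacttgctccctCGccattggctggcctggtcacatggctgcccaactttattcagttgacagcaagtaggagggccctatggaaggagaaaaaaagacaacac
HOXA2 (chr7:27102634-27102933, - strand): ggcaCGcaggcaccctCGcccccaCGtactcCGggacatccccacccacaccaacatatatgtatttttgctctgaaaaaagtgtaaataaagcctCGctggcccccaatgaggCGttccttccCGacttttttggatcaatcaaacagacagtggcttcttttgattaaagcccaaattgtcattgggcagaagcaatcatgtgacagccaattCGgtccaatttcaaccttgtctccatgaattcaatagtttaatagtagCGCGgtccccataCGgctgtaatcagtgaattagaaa
The window of HOXD1 holds 36 CG dinucleotides, and 12.7% of all 35116 such windows hold as many. HOXD8 holds 34 (15.6% of all windows hold as many), HOXA2 holds 11 (54.7%) and HOXD4 holds 4 (75.5%). RefSeq windows were matched for 11 of the 27 members, namely HOXA2, HOXB1, HOXC4, HOXD1, HOXD3, HOXD4, HOXD8, HOXD10, HOXD11, HOXD12 and HOXD13. Their CG count had a median of 23 (range 4 to 36), against 14 over all windows (range 0 to 77), and their median GC content was 58.0%, against 58.7%. Methylation at these sites was not analysed here.

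MicroRNA genes lie between the HOX genes, and 3 of their mature sequences are shown because their genes were on the array and because 2 of them share a seed, with the seed (bases 2 to 8) in capitals. They are from RefSeq (GRCh38.p14).
miR-196a-5p: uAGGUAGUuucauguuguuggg
miR-196b-5p: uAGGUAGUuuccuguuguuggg
miR-615-3p: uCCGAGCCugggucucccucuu
MIR196A1 in cluster B and MIR196A2 in cluster C give the same miR-196a-5p, and MIR196B in cluster A gives miR-196b-5p with the same seed, AGGUAGU. This family is known to target HOXB8 and other HOX messages. MIR615 lies in cluster C and its product has another seed.

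The arrays were close to each other: median signals ran from 4.83 to 4.85 in SAM arrays and from 4.75 to 4.83 in Control arrays. The mean correlation with the other arrays was 0.964 for Control 1 and 0.974 to 0.980 for the other 5. The cell identity was checked against marker lists. All 7 measured basal B markers lay above the level of dim genes defined below, among them vimentin (VIM), a filament protein of mesenchymal-like cells, with 9.18 ± 0.07 in SAM arrays and 9.47 ± 0.14 in Control arrays (SD, n = 3 each). Of the 9 measured luminal markers 2 did, the keratins KRT18 with 9.77 ± 0.14 in SAM arrays and 9.86 ± 0.11 in Control arrays and KRT19 with 7.89 ± 0.03 in SAM arrays and 8.35 ± 0.21 in Control arrays. The other 7 did not, among them the estrogen receptor gene ESR1 with 5.25 ± 0.12 in SAM arrays and 4.93 ± 0.12 in Control arrays and the progesterone receptor gene PGR with 4.31 ± 0.14 in SAM arrays and 3.93 ± 0.35 in Control arrays. The keratins KRT18 and KRT19 were thus bright in these cells. The luminal keratin KRT8, with 6.15 ± 0.32 in SAM arrays and 6.42 ± 0.18 in Control arrays, lay below the level of dim genes. Its Control mean, and those of EPCAM (6.59) and GATA3 (6.07), were above the Control median of all named genes (5.73). Those of ESR1, PGR, FOXA1 and ERBB3 were below that median. Of the basal B breast cancer markers, 7 of 10 were measured and 0 passed the thresholds, and of the luminal markers 9 of 10 were measured and 0 passed. The log2 of the summed signal ran from 12.45 to 12.59 in SAM arrays and from 12.58 to 12.64 in Control arrays for basal B markers, and from 10.43 to 10.62 in SAM arrays and from 10.61 to 10.71 in Control arrays for luminal markers. The basal B markers LOX, an extracellular matrix enzyme, and CD44, a hyaluronan receptor, had log2 fold changes of -0.66 and 0.41, and of the luminal markers KRT19 had -0.45 and ESR1 0.32. Among markers of leukocytes, endothelium and fibroblasts 6 of 12 were measured, 0 passed, and the log2 of their summed signal ran from 7.84 to 8.01 in SAM arrays and from 7.81 to 7.98 in Control arrays. Of these 6, 0 lay above the level of dim genes, and 3 had a log2 fold change above 0 (CD14 0.27, VWF 0.17, DCN 0.04) and 3 below (KDR -0.26, LUM -0.43, PECAM1 -0.22). The part of these differences in the HOX values was not tested.

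In Control cells the HOX genes were mostly dim. Their Control means ran from 3.81 (HOXA2) to 6.87 (HOXB9), with a median of 4.90, against a median of 4.79 over all transcript clusters and 5.73 over all named genes. Of the 27 members, 17 lay above the median of all transcript clusters (0 of 1 in cluster A, 6 of 10 in B, 5 of 7 in C and 6 of 9 in D) and 6 above that of named genes. These 6 were HOXB9, HOXD4, HOXC8, HOXC12, HOXD1 and HOXD11. As a guide to the signal of genes that breast cells are not expected to use, 84 keratin-associated protein (KRTAP) genes of hair had a Control median of 4.21 and a 95th percentile of 6.63. Only HOXB9 of the HOX genes lay above that 95th percentile in Control arrays, while 30.8% of all named genes did. Its SAM mean of 6.80 was above the SAM percentile of 6.75 too, but not without SAM 1 (6.67 against 6.78, the percentile taken again over the remaining arrays). Without Control 2 or Control 3, HOXD4 lay above the percentile as well as HOXB9. The other 26 members lay at or below it, so expression and background could not be told apart for them from the signal alone. Probes differ in how strongly they bind, so these levels do not rank the genes by amount of RNA.

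**Figure D1:**
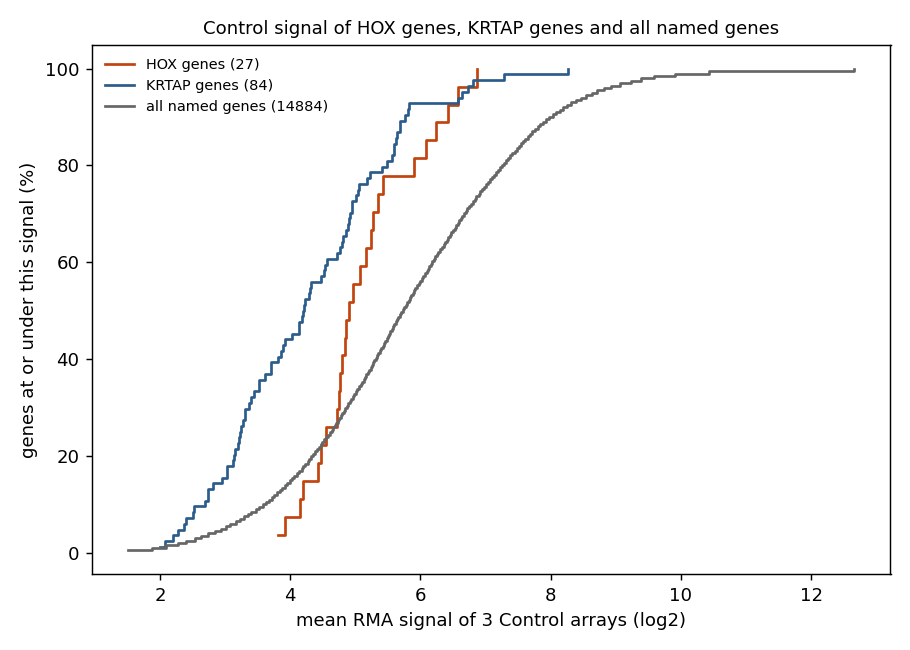
Share of genes (%) at or under each mean RMA signal (log2) of 3 Control arrays, for 27 HOX genes, 84 KRTAP genes and 14884 named genes. The HOX curve starts at 3.81 and ends at 6.87, and its median of 4.90 lies between those of KRTAP genes (4.21) and all named genes (5.73).

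By cluster, the SAM and Control means had medians of 3.84 and 3.81 for HOXA2 alone, 5.07 and 4.85 in cluster B, 5.08 and 4.97 in cluster C, and 5.63 and 5.36 in cluster D. Control means ran from 3.93 (HOXB5) to 6.87 (HOXB9) in cluster B, from 4.42 (HOXC11) to 6.43 (HOXC8) in cluster C and from 4.15 (HOXD13) to 6.58 (HOXD4) in cluster D. The ranges of clusters B, C and D overlapped over most of their length.

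**Figure D2:**
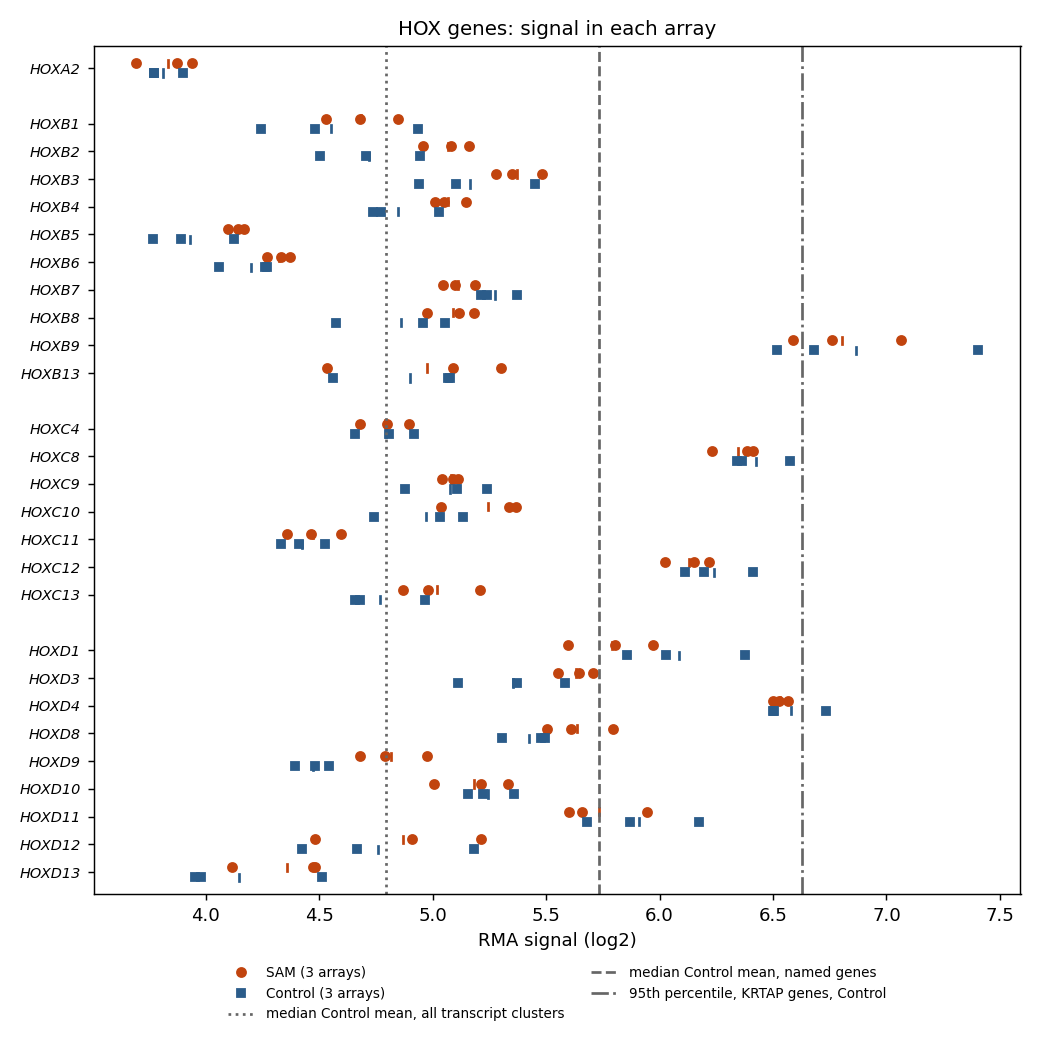
RMA signal (log2) of each HOX gene in the 3 SAM arrays (circles) and the 3 Control arrays (squares), with a short vertical tick at each group's mean, by cluster A to D from top to bottom. The vertical lines mark the median Control mean of all transcript clusters (4.79), that of named genes (5.73) and the 95th percentile of KRTAP genes in Control arrays (6.63), and HOXB9 is the only gene with both group means right of the last line.

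The comparison of SAM with Control asked which genes differ after treatment, by the thresholds of the study's methods, an unadjusted limma P under 0.01 and a fold change over 1.5. No HOX gene passed: 0 of 27, where 582 transcript clusters (1.09%) did. The paper reports fewer altered mRNAs at these thresholds, and the reason for the difference was not tested. At an unadjusted P under 0.05 there was 1 HOX gene, HOXD9 (3.70%), against 7.99% of all transcript clusters, and the methods' t-test also gave HOXD9 alone. Adjusted p-values of the members ran from 0.606 to 0.995, and 0 of all transcript clusters had one under 0.05, by limma or by the methods' t-test. The largest fold changes in the fit of all 6 arrays were 1.27-fold, for HOXB2 and HOXD9, and which gene came first changed with centring and with the array left out. A bulk signal cannot separate fewer expressing cells from less RNA in each cell.

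The intervals describe the difference in signal, which for the 26 members at or below the KRTAP level need not be the difference in RNA. All 27 intervals for the log2 fold change (95%, limma) lay within a 2-fold change in either direction, as did 89.7% over all transcript clusters and 96.5% over named genes. For 14 members (1 in cluster A, 4 in B, 5 in C and 4 in D) the interval also lay within 1.5-fold, and for the other 13 it reached past 1.5-fold. Intervals lay within 1.5-fold for 54.8% of all transcript clusters and 65.3% of named genes. The widest bounds were -0.71 (HOXD1) and 0.70 (HOXB2), each 1.63-fold. The standard error of the members ran from 0.12 to 0.25 with a median of 0.14.

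The log2 fold change was above 0 for 18 of 27 members (66.7%), against 49.4% of all transcript clusters. The number was 17 after repeated quantile normalization and 16 with each array centred on its median. With 1 array left out the number ran from 14 (without SAM 3) to 20 (without SAM 2). With dim transcript clusters left out, 10 of the 18 members kept were above 0. The median log2 fold change of the 27 members was 0.11 (range -0.29 to 0.35), against -0.00 over all transcript clusters. In 4 members, HOXB2, HOXB6, HOXD8 and HOXD9, all 3 SAM arrays lay above all 3 Control arrays (14.8%, against 7.12% of all transcript clusters), and in 1, HOXB7, all lay below (3.70%, against 7.95%). With 3 arrays against 3, the exact two-sided permutation test cannot give a p below 0.1, so this separation is a description, and under either further normalization 3 of the 27 were separated. Leaving out 1 array turned the sign or moved the value by over 1.5 times for 23 of the 27 members, and not for HOXB2, HOXB4, HOXB7 and HOXD9. The median also moved with 1 array: without Control 1 it was 0.06, with 17 of 27 members above 0.

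**Figure D3:**
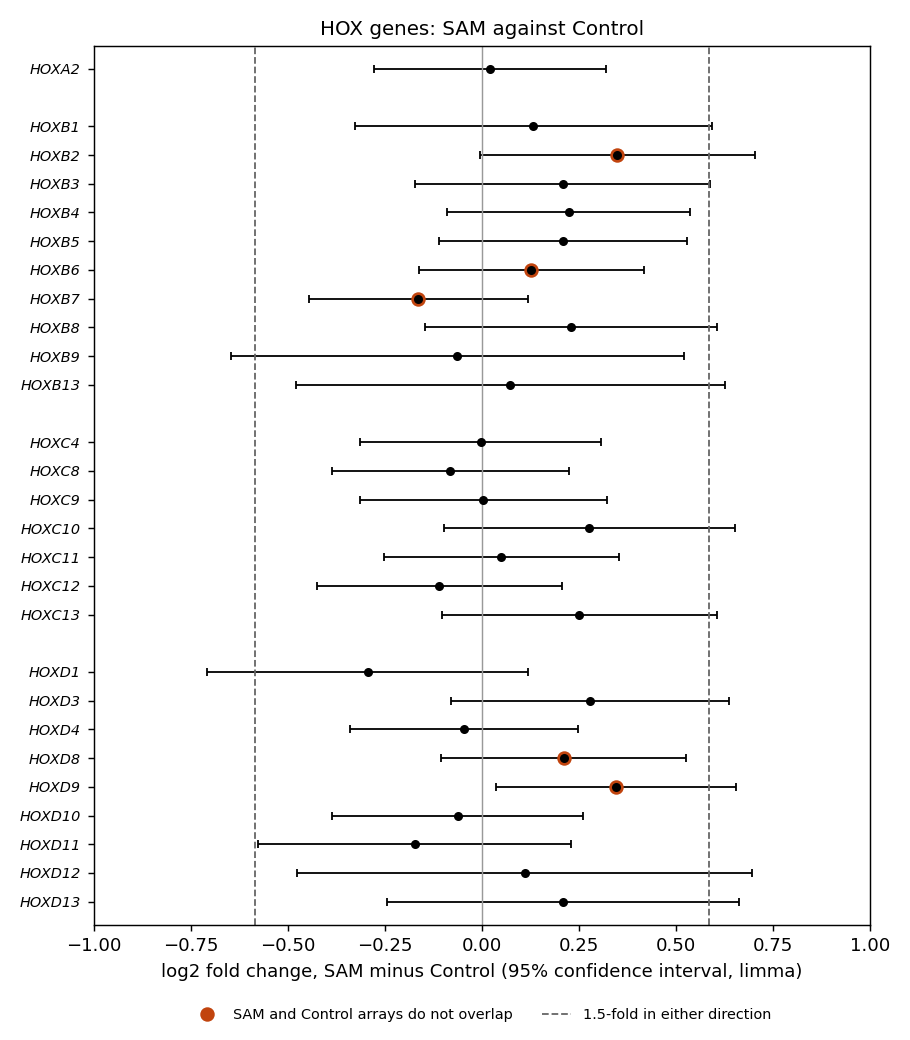
Log2 fold change (SAM minus Control) of each HOX gene with its 95% confidence interval from limma, and dashed lines at 1.5-fold in either direction. The interval of HOXD9 alone leaves out 0, and 5 genes whose SAM and Control arrays do not overlap are marked by larger coloured points.

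In cluster A, HOXA2, which patterns the second pharyngeal arch and the hindbrain, had signals of 3.87, 3.69 and 3.94 in SAM arrays, against 3.90, 3.77 and 3.77 in Control arrays. The groups overlapped, with the lowest array and the highest array both among the SAM arrays. The log2 fold change was 0.02 (SE 0.13, 95% interval -0.28 to 0.32, limma adjusted p = 0.972), and ran from -0.03 (without SAM 3) to 0.09 (without SAM 2) when 1 array was left out.

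In cluster B, 8 of 10 genes had a log2 fold change above 0 and 2 below, with a median of 0.17 that came to 0.07 without Control 1 (6 of 10 above 0). HOXB2, a gene of the hindbrain, had 4.96, 5.08 and 5.16 in SAM arrays, against 4.50, 4.71 and 4.95 in Control arrays. The SAM arrays lay above the Control arrays by a gap of 0.014, and Control 1 was the lowest. Its log2 fold change was 0.35 (SE 0.15, 95% interval -0.01 to 0.70, limma adjusted p = 0.629). HOXB4, known for expanding blood stem cells, had 5.15, 5.05 and 5.01 in SAM arrays, against 4.74, 5.03 and 4.77 in Control arrays. The groups overlapped, since Control 2 lay between the SAM arrays, and the log2 fold change was 0.22 (SE 0.13, 95% interval -0.09 to 0.54, limma adjusted p = 0.69). HOXB6, which is also expressed in blood precursors, had 4.37, 4.33 and 4.27 in SAM arrays, against 4.06, 4.26 and 4.27 in Control arrays. Here the lowest SAM array and the highest Control array differed by 1.06e-04, so the separation is far smaller than the spread within either group, and the log2 fold change was 0.13 (SE 0.12, 95% interval -0.16 to 0.42, limma adjusted p = 0.788). The value ran from 0.06 (without Control 1) to 0.16 (without Control 3) when 1 array was left out.

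HOXB7, which is overexpressed in some breast cancers, was the only member with all SAM arrays below all Control arrays. It had 5.19, 5.05 and 5.10 in SAM arrays, against 5.37, 5.24 and 5.21 in Control arrays, a gap of 0.028 between the groups. The log2 fold change was -0.16 (SE 0.12, 95% interval -0.45 to 0.12, limma adjusted p = 0.731), and its interval lay within 1.5-fold. HOXB9, one of the paralogs that the mouse mammary gland needs, had the highest signal of all members. It had 7.06, 6.59 and 6.76 in SAM arrays, against 6.52, 7.40 and 6.68 in Control arrays, so that Control 2 was the highest and Control 1 the lowest of the 6 arrays. The difference, -0.06 (SE 0.25, 95% interval -0.65 to 0.52, limma adjusted p = 0.954), was smaller than the spread of the Control arrays (SD 0.47), and it ran from -0.24 (without Control 1) to 0.21 (without Control 2) when 1 array was left out. The other 5 genes of the cluster, HOXB1, HOXB3, HOXB5, HOXB8 and HOXB13, had log2 fold changes from 0.07 (HOXB13, a gene of prostate and hindgut) to 0.23 (HOXB8, a target of miR-196), all with overlapping groups.

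In cluster C, 4 of 7 genes had a log2 fold change above 0 and 3 below, with a median of 0.00, and 0 had groups that did not overlap. HOXC8, which marks where mammary buds form in the mouse, had 6.39, 6.41 and 6.23 in SAM arrays, against 6.57, 6.34 and 6.37 in Control arrays. Its groups overlapped, with Control 1 highest, and the log2 fold change was -0.08 (SE 0.13, 95% interval -0.39 to 0.22, limma adjusted p = 0.879). It ran from -0.12 (without Control 2) to -0.01 (without Control 1) when 1 array was left out. HOXC12, of the posterior end of the cluster, had 6.15, 6.22 and 6.02 in SAM arrays, against 6.41, 6.11 and 6.20 in Control arrays, again with Control 1 highest, and a log2 fold change of -0.11 (SE 0.14, 95% interval -0.43 to 0.21, limma adjusted p = 0.839). That of HOXC12 ran from -0.17 (without Control 2) to -0.02 (without Control 1) when 1 array was left out, so without Control 1 both genes were near 0. The intervals of both genes lay within 1.5-fold.

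HOXC10, a gene of the hindlimb and lumbar spinal cord, had the smallest P of cluster C. It had 5.04, 5.33 and 5.37 in SAM arrays, against 4.74, 5.14 and 5.03 in Control arrays. SAM 1 lay at the level of Control 3, the other SAM arrays above all Control arrays, and the log2 fold change was 0.28 (SE 0.16, 95% interval -0.10 to 0.65, limma adjusted p = 0.682). That value ran from 0.16 (without Control 1) to 0.38 (without SAM 1) when 1 array was left out. HOXC13, which controls hair keratin genes, had 4.87, 5.21 and 4.98 in SAM arrays, against 4.68, 4.66 and 4.97 in Control arrays. The groups overlapped through Control 3, and the log2 fold change was 0.25 (SE 0.15, 95% interval -0.10 to 0.60, limma adjusted p = 0.691). It likewise ran from 0.16 (without SAM 2) to 0.35 (without Control 3) when 1 array was left out. The other 3 genes, HOXC4, HOXC9 and HOXC11, had log2 fold changes of -0.00, 0.00 and 0.05.

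In cluster D, 5 of 9 genes had a log2 fold change above 0 and 4 below, with a median of 0.11 that came to 0.03 without Control 1. HOXD9, one of the paralogs needed for the mouse mammary gland, had the smallest P of all members. Its signals were 4.68, 4.98 and 4.79 in SAM arrays, against 4.39, 4.54 and 4.48 in Control arrays. All SAM arrays lay above all Control arrays, with a gap of 0.14 that is the widest among the 5 separated members. The log2 fold change was 0.35 (SE 0.13, 95% interval 0.04 to 0.65, limma adjusted p = 0.606), a 1.27-fold difference that did not pass the thresholds, and it stayed between 0.27 and 0.41 when any 1 array was left out. Its Control mean of 4.47 lay below the median of all transcript clusters.

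HOXD8, the next gene along the chromosome and one of those whose start region is shown above, had 5.50, 5.79 and 5.61 in SAM arrays, against 5.49, 5.48 and 5.31 in Control arrays. The groups were separated by 0.0092, with SAM 1 and Control 1 nearly level, and the log2 fold change was 0.21 (SE 0.14, 95% interval -0.10 to 0.53, limma adjusted p = 0.699). For HOXD8 it ran from 0.13 (without SAM 2) to 0.28 (without SAM 1) when 1 array was left out. HOXD3, known for promoting integrin expression in endothelial cells, had 5.64, 5.55 and 5.71 in SAM arrays, against 5.37, 5.58 and 5.11 in Control arrays. Control 2 lay within the range of the SAM arrays and the other Control arrays lay below it, and the log2 fold change was 0.28 (SE 0.15, 95% interval -0.08 to 0.64, limma adjusted p = 0.673). For HOXD3 it ran from 0.16 (without Control 3) to 0.39 (without Control 2) when 1 array was left out.

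HOXD1, a gene of the anterior end of the cluster, had the lowest log2 fold change of all members in the fit of all 6 arrays. It had 5.60, 5.97 and 5.80 in SAM arrays, against 6.03, 6.37 and 5.85 in Control arrays, and the groups overlapped through SAM 2 and Control 3. The log2 fold change was -0.29 (SE 0.18, 95% interval -0.71 to 0.12, limma adjusted p = 0.69). It ran from -0.41 (without Control 3) to -0.15 (without Control 2) when 1 array was left out, and was no longer the lowest without SAM 1, where HOXB7 was, or without Control 2, where HOXD11 was. HOXD4, a gene of the hindbrain and neck vertebrae, had 6.53, 6.56 and 6.50 in SAM arrays, against 6.73, 6.50 and 6.50 in Control arrays. Except for Control 1, which was higher, the arrays of both groups overlapped within a narrow band, and the log2 fold change was -0.05 (SE 0.13, 95% interval -0.34 to 0.25, limma adjusted p = 0.931). For HOXD4 it ran from -0.09 (without Control 2) to 0.03 (without Control 1) when 1 array was left out. The second transcript cluster that bears the HOXD4 symbol gave a log2 fold change of -0.14 (SE 0.14). The other 4 genes, HOXD10, HOXD11, HOXD12 and HOXD13, had log2 fold changes from -0.17 (HOXD11, of the forearm) to 0.21 (HOXD13, of the digits), all with overlapping groups.

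The spread between arrays had a pattern of its own. Control 1 was the lowest of the 6 arrays for 12 of 27 HOX genes (44.4%), against 23.3% of all transcript clusters. These were 7 of 10 genes in cluster B, 2 of 7 in cluster C and 3 of 9 in cluster D. It was also the highest for 8 members, against 28.2% of all transcript clusters. The median HOX signal was 5.04, 5.09 and 5.12 in SAM arrays, against 4.74, 5.07 and 5.05 in Control arrays. Control 2 and Control 3 thus lay within the range of the SAM arrays and Control 1 alone lay below. The SD within a group had a median of 0.12 in SAM arrays and 0.18 in Control arrays. The part of Control 1 in the HOX values was measured by leaving it out, as given above.

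**Figure D4:**
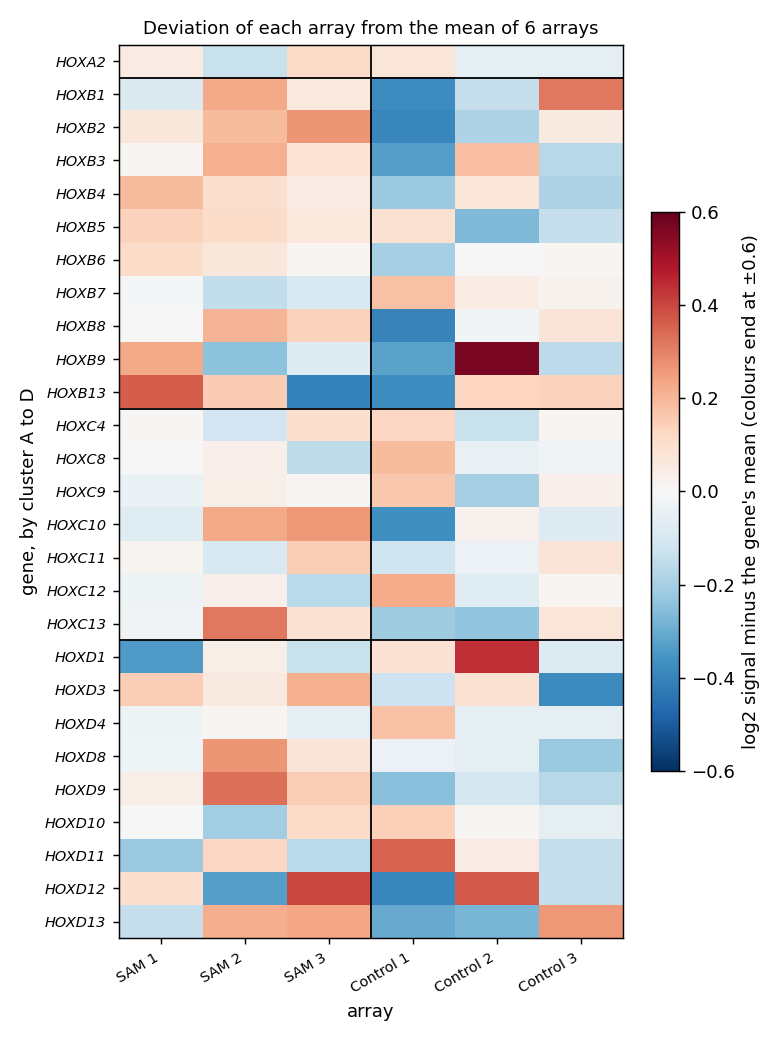
Log2 signal of each HOX gene in each of the 6 arrays minus that gene's mean over the 6 arrays, for SAM arrays on the left and Control arrays on the right, by cluster A to D. Control 1 is the lowest array for 12 of 27 genes, 7 of them in cluster B, and the highest for 8.

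Neighbours and paralogs were compared by sign. The contiguous genes HOXB1 to HOXB6 all had log2 fold changes above 0, from 0.13 to 0.35, and in 5 of these 6 Control 1 was the lowest array. Without Control 1 only 5 of the 6 were above 0, with HOXB1 at -0.02 and HOXB6 at 0.06. In cluster D, HOXD8 and HOXD9 are neighbours with separated groups, and the next gene, HOXD10, had -0.06. Of the 10 paralog groups with at least 2 members, 3 (groups 2, 3 and 13) had the same sign throughout and 7 did not. The number with 1 sign was 2 after repeated quantile normalization or centring, where HOXA2 in group 2 was below 0, and ran from 2 to 5 when 1 array was left out. Without Control 1 HOXB13 in group 13 was at -0.10. Group 3 (HOXB3 and HOXD3) alone kept 1 sign under all of these settings. The widest difference was in group 1, with 0.13 for HOXB1 and -0.29 for HOXD1, followed by group 9, with -0.06 for HOXB9, 0.00 for HOXC9 and 0.35 for HOXD9. These differences between paralogs were not tested. RefSeq annotates overlaps of HOXB3 with HOXB4, of HOXC4 with HOXC5 and HOXC6, and of HOXD3 with HOXD4, so the signal of those genes may be shared.

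The noncoding RNAs of the clusters were also dim: 14 of 26 listed were measured, 0 of the 14 lay above the KRTAP 95th percentile, and 0 passed the thresholds or had an unadjusted P under 0.05. Their log2 fold changes were above 0 for 8 and below for 6, with a median of 0.03. MIR615, the gene of the miR-615-3p sequence shown above, had 5.50, 5.97 and 5.68 in SAM arrays, against 4.71, 5.55 and 5.46 in Control arrays. Control 1 was the lowest and the groups overlapped, and the log2 fold change was 0.47 (SE 0.24, 95% interval -0.10 to 1.05, limma adjusted p = 0.662). HOXD-AS2, an antisense RNA of cluster D, had a log2 fold change of -0.21 (SE 0.12, 95% interval -0.50 to 0.07, limma adjusted p = 0.681). The 3 genes of the miR-196 family, whose seed is AGGUAGU, had -0.25 (MIR196A1), -0.17 (MIR196A2) and 0.13 (MIR196B), and HOTAIR, a long noncoding RNA of cluster C that binds Polycomb, had 0.01. An array of this kind does not separate a microRNA's precursor from its mature form. The miR-196 genes and HOTAIR were chosen after their values were seen.

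The proteins that HOX factors bind with, and those that set their chromatin, were read from the same fit, with 0 past the thresholds in every list. PKNOX1, CDX1 and PRAC1, named below, were not above the KRTAP level, so for them too expression and background could not be told apart. Above that level lay 1 of 7 measured HOX cofactors, 8 of 13 of Polycomb repressive complex 1 and 10 of 10 activators. So did 5 of 8 insulators and upstream regulators, and 5 of 18 cluster neighbours and other homeobox genes. Of the TALE cofactors (PBX, MEIS and PKNOX families), which sharpen the DNA binding of HOX proteins, 7 of 9 were measured, with 2 above and 5 below 0 and a median of -0.22. PBX2 had 6.98 ± 0.10 in SAM arrays and 7.22 ± 0.06 in Control arrays (SD, n = 3 each), a log2 fold change of -0.24 (SE 0.12, 95% interval -0.53 to 0.04, limma adjusted p = 0.657), and PKNOX1 had -0.31. Of Polycomb repressive complex 2, 9 of 11 were measured (5 above 0 and 4 below, median 0.01), with EZH1, a methyltransferase of lysine 27, at -0.26 and SUZ12, a core subunit, at 0.10. All 9 lay above the KRTAP 95th percentile. Of Polycomb repressive complex 1, 13 of 18 were measured (2 above 0 and 11 below, median -0.08), with PHC1 at -0.24 and PCGF2 at -0.22.

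Of the MLL complex and other activators of HOX genes, 10 of 17 were measured, with 1 above and 9 below 0 and a median of -0.16. KMT2A, the MLL gene itself, was not among those measured, nor were ASH2L, DOT1L, MLLT1, MLLT3, AFF1 and AFF4. KMT2C, a methyltransferase of lysine 4, had a log2 fold change of -0.29 (SE 0.13, 95% interval -0.59 to -0.00, limma adjusted p = 0.625), and PSIP1, which tethers MLL to chromatin, had -0.29. Of the insulators and upstream regulators 8 of 15 were measured (2 above 0 and 6 below, median -0.16). CDX1, which activates HOX genes in the gut and the embryo, had -0.34 (SE 0.14, 95% interval -0.66 to -0.02, limma adjusted p = 0.619), and CTCF, the insulator protein that partitions the clusters, had -0.34. Of the neighbours of the clusters and other Antennapedia-class homeobox genes 18 of 22 were measured, 9 above 0 and 9 below, with a median of 0.00. CALCOCO1, a coactivator gene next to cluster C, had -0.51 (SE 0.15, 95% interval -0.87 to -0.15, limma adjusted p = 0.575). PRAC1, within cluster B between HOXB9 and HOXB13, had -0.62 (SE 0.23, 95% interval -1.16 to -0.08, limma adjusted p = 0.603). Without Control 3, CALCOCO1 passed both thresholds, as did the basal B marker LOX, and without Control 2 PRAC1 did. For each of these lists the share of all transcript clusters past both thresholds was the 1.09% given above. The log2 fold change was above 0 for 49.4% of all transcript clusters and 45.8% of named genes. An unadjusted limma P under 0.05 was found for 1 of 10 activators, 1 of 8 insulators and upstream regulators and 2 of 18 neighbours. It was found for 0 of the cofactors and of both Polycomb complexes, against 7.99% of all transcript clusters. Among the marker lists it was found for 2 of 7 basal B, 2 of 9 luminal and 0 of 6 other markers. In the cofactor, chromatin, insulator and neighbour lists all SAM arrays lay below all Control arrays for PBX2, PKNOX1, MEIS2, EZH1, PHC1 and PCGF2. So they did for KMT2C, PSIP1, KMT2D, CDX1, SMC3, RAD21, CALCOCO1 and PRAC1, against 7.95% of all transcript clusters. They lay above for PBX4 and SMUG1, against 7.12%. No list was tested as a set.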

How the data were processed

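The authors deposited log2 signal values: RMA in the Bioconductor package oligo (background correction, quantile normalization and summary per transcript cluster), with no version given in the sources used here. A linear model with moderated variance (limma 3.58.1, R 4.3.3; lmFit, eBayes) was fitted to all 53617 transcript clusters without a block, and Benjamini-Hochberg adjustment ran across the whole table. Thresholds were an unadjusted P under 0.01 and a fold change over 1.5. The procedure was tested on simulated data.

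Named HOX genes are those past both thresholds, those whose groups do not overlap, and in each cluster the 2 with the highest Control mean and the 2 with the smallest P. In other lists they are up to 2 with the smallest P. Further list members were named after their values were seen. These are VIM, KRT8, KRT18, PGR, EPCAM, GATA3, FOXA1, ERBB3, CD14, VWF, DCN, PECAM1, HOTAIR and the miR-196 genes. So are MEIS2, PBX4, KMT2D, SMC3, RAD21 and SMUG1. The members and lists were chosen with earlier results of these data known. The level of olfactory receptor genes was planned as a guide to dim signal, but 1 such gene is named, so KRTAP genes, chosen after the data were seen, took their place. Same-numbered SAM and Control arrays did not deviate together (r = -0.00, -0.07 and 0.11), so numbers were not taken as pairs. Alternatives were further normalization, a filter on dim transcript clusters, other tests, the replicate block and leaving out each array. With 3 arrays in each group, their number limits the precision.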

Additional observations from a re-analysis of the deposited data

How the results depend on the processing

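The count of HOX genes past both thresholds was 0 under every alternative run, with 0 to 2 at an unadjusted P under 0.05. HOXD9 lost that P without SAM 2 or SAM 3, without Control 1 or Control 3, and with dim transcript clusters left out, which removed it (18 of 27 members were kept). The count of 582 transcript clusters became 359 with dim ones left out, 188 with Student's t-test and 921 with no fold change minimum. It ran from 463 to 934 when 1 array was left out (934 without Control 2). The count of 5 HOX genes with separated groups became 3 after quantile normalization was repeated, 3 after each array was centred on its median, 3 with dim transcript clusters left out, and 6 to 10 when 1 array was left out, where fewer arrays separate more easily. Centring moved the median over all transcript clusters to -0.04. The median HOX log2 fold change was 0.08 after repeated quantile normalization, 0.07 after centring, 0.04 with dim ones left out and 0.06 to 0.15 when 1 array was left out, lowest without Control 1. Named HOX genes kept their sign except HOXA2 (-0.0118 after repeated quantile normalization, -0.0174 after centring, -0.0320 to 0.0928 by array), HOXD4 (0.0127 after repeated quantile normalization, -0.0865 to 0.0298 by array) and HOXB9 (-0.24 to 0.21 by array), and the cause was not tested. The number of HOX genes above a baseline level was 17 for the median of all transcript clusters, and, with levels chosen after the data were seen, 6 for the median of named genes and 12, 1 and 0 for the 75th, 95th and 99th percentile of KRTAP genes. Percentiles of olfactory receptor genes were not run, since 1 is named. The labels give SAM and Control the same replicate numbers, and with the replicate block 659 transcript clusters and 0 HOX genes passed, with HOXB2 joining HOXD9 at an unadjusted P under 0.05. Signals near those of KRTAP genes limit what 26 of the 27 members can show.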
